A study of Mus musculus with 24 samples.

Results

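Complement was followed here through 9 genes of the count table: the C1q chain genes C1qa, C1qb and C1qc, the C1 protease genes C1ra and C1s1, the cascade components C4b, C3 and Cfb, and Serping1, which encodes the C1 inhibitor. They were picked by name, out of 21965 genes listed and with earlier results of these data known. All 9 were among the 17167 genes that had at least 10 counts over all libraries and were tested. The data come from OL-Ribotag mice, in which tamoxifen-activated Cre under an OL promoter puts an HA tag on ribosomes of mature oligodendrocytes (OLs). All mice carried these alleles and all received tamoxifen. Spinal cord came from naive mice and from mice killed 2, 10 or 42 days post-injury (dpi), the injury being a contusive spinal cord injury (SCI) at T9 (50 kdyn, females of 10 to 12 weeks per the labels), each group as 3 pools of tissue from 2 mice. From each pool, 1 library held the RNA of the whole tissue (total RNA) and 1 the transcripts pulled down with HA-tagged ribosomes (OL), which gives 24 libraries in 8 groups of n = 3. By the paper, naive and dpi 42 tissue was collected on the same day and at the same age. Naive mice were thus older than those of dpi 2 and 10, and comparisons of these days with naive differ in age as well. The Cre is also active in Schwann cells, which limits OL as a model of OLs alone.

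The complement system is a cascade of plasma and tissue proteins that tags cells, debris and microbes for removal. In its classical pathway, C1q recognises a target, the proteases C1r and C1s are switched on, C4 and C2 are cut, and C3 is split into fragments that coat the target and attract phagocytes, while factor B serves the alternative route to the same C3 step and the C1 inhibitor blocks C1r and C1s. In the central nervous system C1q is known mainly as a product of microglia and macrophages and C3 as a gene that reactive astrocytes switch on, and both are studied in synapse loss and in inflammation after injury.

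The libraries held 25840127 to 32987841 gene counts (median 29062636), and levels are given as CPM (library-scaled counts) after TMM normalisation. The 8 OL markers, among them Mbp, Mag and Mog, summed to 443% to 650% of the total RNA level of the same pool, and 10 myeloid markers to 5.21% to 10.1%. Not all OL libraries were alike. In 5 of 12 (naive pool 3, dpi 2 pool 3, dpi 10 pool 2 and dpi 42 pools 1 and 2) the 8 astrocyte markers summed to 7654 to 14770 CPM, against 2238 to 4168 CPM in the other 7 and 6883 to 9440 CPM in total RNA. No astrocyte marker was at 0 in all libraries of any group. The 6 Schwann cell markers summed to 708 CPM in naive OL pool 3, 7.69 and 9.52 CPM in the other naive OL libraries, and 236 to 1561 CPM in OL after SCI. Both libraries of dpi 2 pool 2 held 2414 to 2604 counts on 4 Y-linked genes, against at most 13 in the other 22, although the labels describe females. The labels of 2 dpi 42 libraries disagree on which is OL and which is total RNA, and they were placed by their descriptions and column names as the OL and total RNA libraries of pool 1. The pairing of OL with total RNA within pools is thus unclear at dpi 42, and percentages within pools at that time rest on it.

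The first question was whether complement transcripts rose in the tissue and in OLs after SCI. A gene was called changed when its fold change passed 1 on the log2 scale with an adjusted p under 0.05 in edgeR's quasi-likelihood test, adjusted over all tested genes by the Benjamini-Hochberg method. In total RNA, 7 of 9 complement genes were called higher at dpi 2, where 10% of all tested genes were called higher, 8 at dpi 10 (9.2% of all) and 8 at dpi 42 (6.66% of all). In OL, 7 were called higher at dpi 2 (10.2% of all tested genes), 6 at dpi 10 (6.82%) and 8 at dpi 42 (8.54%). None was called lower, where 6.33%, 3.07% and 0.798% of all tested genes were in total RNA at dpi 2, 10 and 42 and 6.85%, 1.26% and 4.08% in OL. All SCI libraries lay above all naive ones for 7, 9 and 8 of the 9 in total RNA (24.7%, 24.5% and 20.2% of all tested genes) and for 5, 6 and 8 in OL (18.3%, 15.8% and 17.2%). The median change of the 8 genes other than Cfb was 3.17, 4.33 and 3.95 (log2) in total RNA at dpi 2, 10 and 42 and 2.55, 3.61 and 3.97 in OL, while the median over all tested genes was -0.10, -0.10 and -0.08 in total RNA and 0 in OL. In bulk tissue, a change in the number of cells of a type and a change in RNA per cell cannot be told apart.

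**Figure D1:**
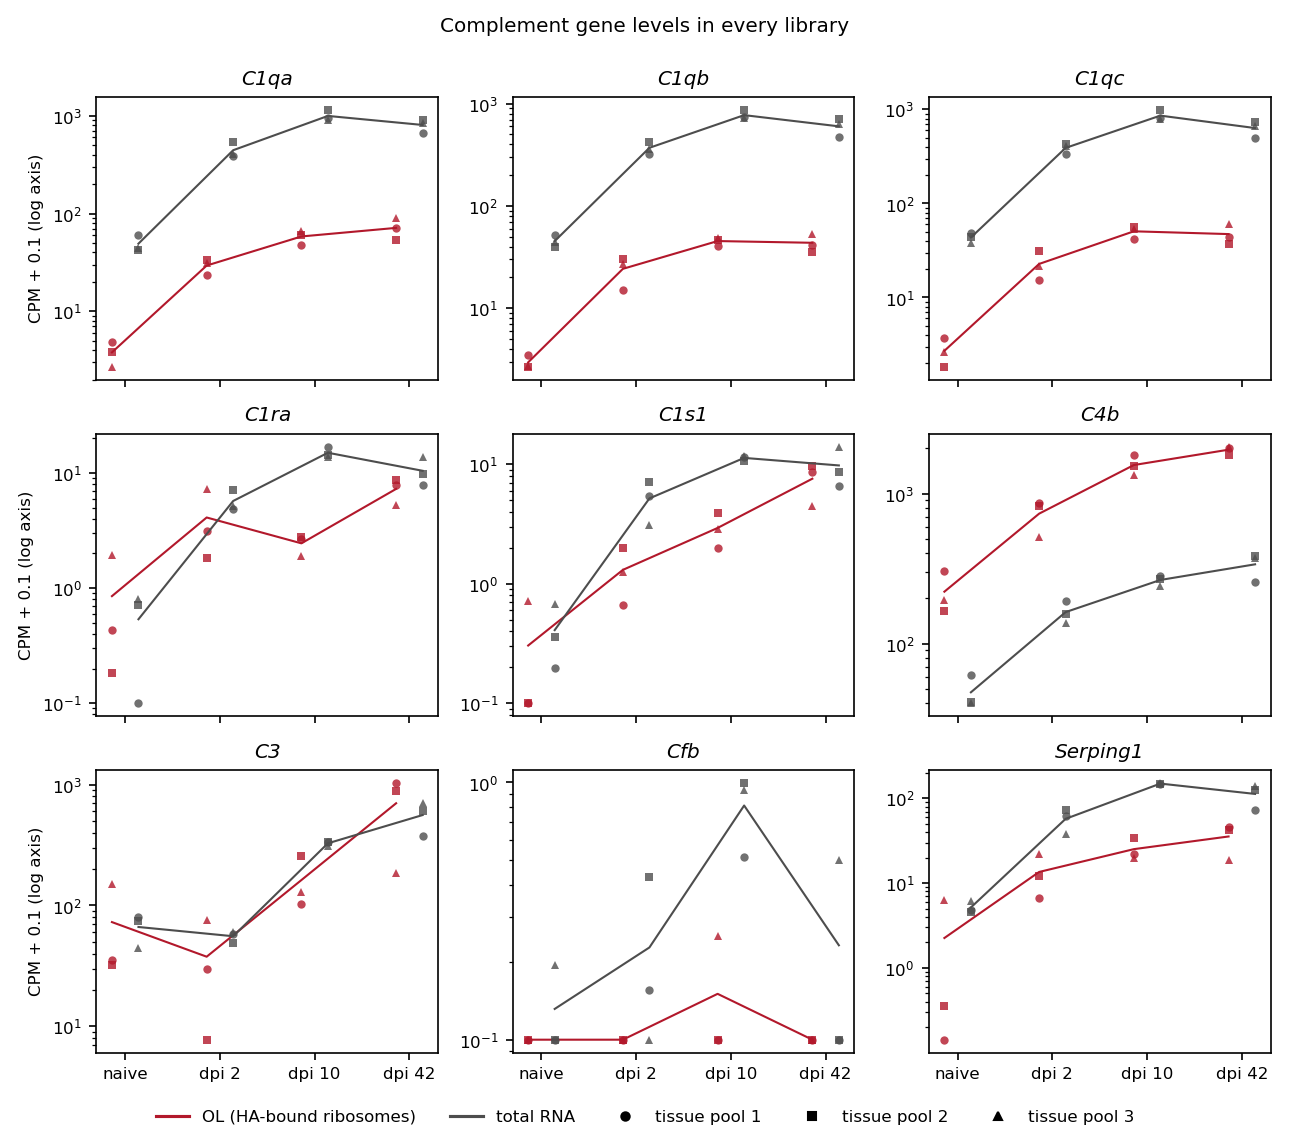
Level of each of the 9 complement genes in every library, as CPM + 0.1 on a log axis, at naive and dpi 2, 10 and 42; red, OL; grey, total RNA; symbols, tissue pools 1 to 3; lines join group means. C4b is the one gene whose OL libraries lie above total RNA throughout, the C1q chains lie below throughout, and C3 and Serping1 scatter among the OL libraries of a group.

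The genes differed most in how OL compared with total RNA. OL enrichment is the log2 ratio of OL to total RNA at the same time, called past 0.5 in either direction with an adjusted p under 0.05. C4b was the only one of 9 called OL enriched, and it was so in naive tissue and at dpi 2, 10 and 42, where 21.7%, 20.5%, 21.2% and 21.1% of all tested genes were. Called lower in OL were 3 genes in naive tissue (28.6% of all tested genes), 5 at dpi 2 (27.2%), 6 at dpi 10 (27.3%) and 4 at dpi 42 (27%). The C1q chains were in each of these sets, Serping1 in those after SCI, C1s1 in those of dpi 2 and 10, and C1ra in that of dpi 10. The OL libraries of C4b lay above all total RNA libraries at each time, as did those of 28.8%, 25.2%, 29.2% and 25.6% of all tested genes. OL libraries lay wholly below total RNA for 3, 5, 8 and 4 of the 9 genes, against 38.1%, 32.1%, 38.4% and 32.7% of all, and C3 and Cfb joined the others only at dpi 10.

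**Figure D2:**
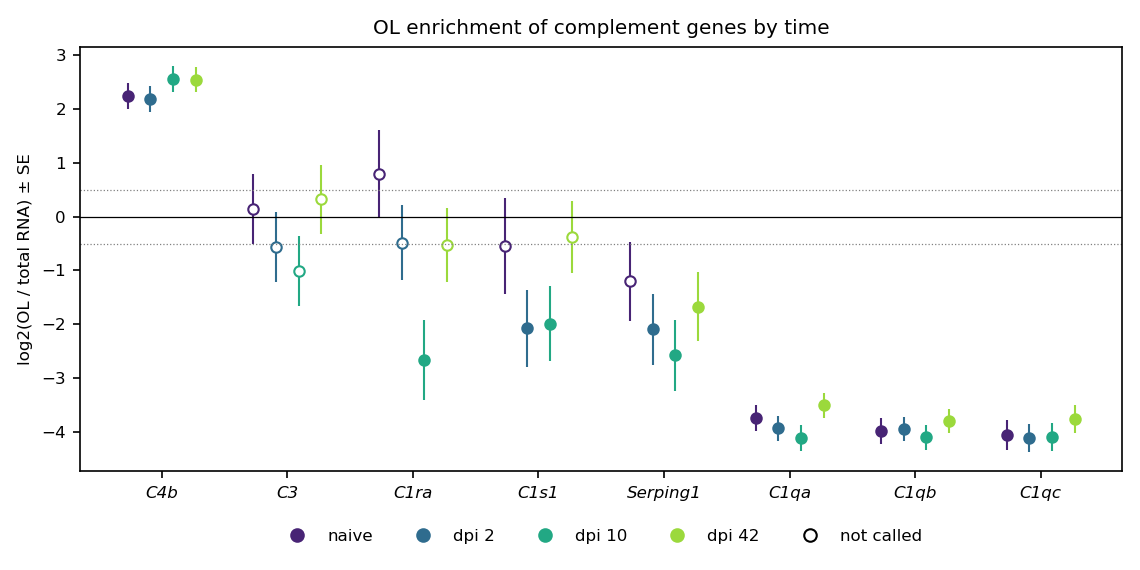
OL enrichment, log2(OL / total RNA) ± SE from edgeR, for 8 complement genes (x axis) in naive tissue and at dpi 2, 10 and 42 (colours); filled points were called past 0.5 (dotted lines), open points were not. C4b lies at 2.18 to 2.55, the C1q chains at -4.11 to -3.50, and C3, C1ra, C1s1 and Serping1 between them with wider errors.

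C4b (ENSMUSG00000073418, chr17:34728380-34743882, minus strand, GRCm38) encodes C4, whose larger fragment binds covalently to targets. In naive OL libraries it measured 307, 165 and 194 CPM in pools 1, 2 and 3. These levels were 869, 823 and 513 CPM at dpi 2, 1796, 1527 and 1329 CPM at dpi 10, and 2015, 1818 and 2055 CPM at dpi 42. The highest naive library lay below the lowest at dpi 2, and each later group lay wholly above the one before it. Of all tested genes, 18.3%, 17% and 9.45% rose without overlap at these 3 steps in OL. The OL change from naive was 1.73 ± 0.23 (SE) at dpi 2, 2.81 ± 0.24 at dpi 10 and 3.15 ± 0.245 at dpi 42 on the log2 scale, with adjusted p of 4.8e-06, 6.3e-08 and 1.5e-08 in edgeR's quasi-likelihood test. C4b rose in OL between dpi 2 and 10 too, by 1.08 ± 0.23 (adjusted p = 0.00148 in edgeR's test), but by 0.93 without dpi 2 OL pool 3 and 0.89 (adjusted p = 0.0782) with a length and GC offset, 0.91 (0.0674) with that offset and the replicate block, and 0.94 (0.00653) without the 5 OL libraries high in astrocyte markers, all of which end the call. From dpi 10 to 42 the change was 0.34 ± 0.23 (adjusted p = 0.382 in edgeR's test).

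In total RNA C4b measured 61.2, 40.6 and 39.9 CPM in naive pools 1, 2 and 3, then 191, 157 and 138 CPM at dpi 2, 283, 270 and 243 CPM at dpi 10 and 257, 384 and 372 CPM at dpi 42. All SCI libraries lay above all naive ones. The total change was 1.78 ± 0.23 (SE), 2.49 ± 0.24 and 2.84 ± 0.24 (log2) at dpi 2, 10 and 42, with adjusted p of 4.1e-06, 1.1e-07 and 4.3e-08 in edgeR's quasi-likelihood test. Within each pool the OL level was 372% to 783% of the total RNA level, beside 443% to 650% for the OL markers and 5.21% to 10.1% for the myeloid ones. The Schwann cell markers stood at 174% to 416% after SCI, and at 17.1%, 21.7% and 296% in naive pools 1, 2 and 3, where C4b stood at 501%, 407% and 485%. Their part in the OL rise of C4b was not tested. OL enrichment of C4b was 2.23 ± 0.24 in naive tissue and 2.18 ± 0.24, 2.55 ± 0.24 and 2.54 ± 0.24 at dpi 2, 10 and 42. The adjusted p ran from 1.0e-08 to 9.5e-08 in edgeR's test, and the enrichment stayed within 1.60 to 2.68 in every alternative and with any single library left out. The 3 differences between OL change and total change, -0.05, 0.31 and 0.31, were not called.

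Per kilobase of exon, C4b stood at 39.0 ± 13.2 CPM per kb (SD, n = 3) in naive OL, C3 at 14.1 ± 13.2 and C1qa at 3.55 ± 1.01. The naive OL libraries of C4b and C3 overlapped, C3 in pool 3 (29.3) lying above C4b in pool 2 (29.0). At dpi 42 C4b stood at 345 ± 22.2 CPM per kb in OL, C3 at 136 ± 88.0 and C1qa at 68.4 ± 17.6. Those of C3 and C1qa overlapped there, C3 in pool 3 (35.8) lying below the lowest of C1qa (51.2). In total RNA the order was another. At dpi 10, C1qa had 959 ± 120 CPM per kb, C1qb 710 ± 72.4 and C1qc 445 ± 54.5, while Serping1 had 64.3 ± 0.65, C3 63.5 ± 3.18 and C4b 46.6 ± 3.56. The libraries of Serping1 and C3 overlapped there, and those of the C1q chains did not overlap each other or any other of the 9 genes. Reads that fit both C4b and its near-identical neighbour C4a could be lost or placed on either, depending on the counting. C4a was not among the genes with deposited counts, so no level is given for it.

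C1qa, C1qb and C1qc encode the A, B and C chains that make up C1q, and lie side by side on chromosome 4 (chr4:136895917-136898803, chr4:136880129-136886187 and chr4:136889804-136893065, minus strand, GRCm38). All 3 rose together in both kinds of RNA and were scarce in OL. C1qa measured 60.8, 42.1 and 44.3 CPM in naive total RNA, 387, 542 and 405 CPM at dpi 2, 939, 1141 and 912 CPM at dpi 10 and 663, 914 and 841 CPM at dpi 42. Every SCI library lay above every naive one, and dpi 10 lay wholly above dpi 2, as it did for 19.2% of all tested genes. The total changes of the 3 chains were 3.03 to 3.18 at dpi 2, 4.10 to 4.35 at dpi 10 and 3.73 to 4.04 at dpi 42 (log2), with the highest adjusted p 6.8e-09 in edgeR's quasi-likelihood test.

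In OL libraries, C1qa measured 4.71, 3.77 and 2.6 CPM in naive tissue, 23.2, 33.7 and 30.8 CPM at dpi 2, 48.0, 60.5 and 66.0 CPM at dpi 10 and 70.3, 53.3 and 90.0 CPM at dpi 42. C1qb and C1qc followed the same course, from 1.73 to 3.57 CPM in naive OL to 35.3 to 60.3 CPM at dpi 42. For all 3 chains the OL libraries after SCI lay above the naive ones without overlap at each time. Their OL changes were 2.99 to 3.11 at dpi 2, 3.98 to 4.27 at dpi 10 and 3.93 to 4.27 at dpi 42, with the highest adjusted p 1.6e-08 in edgeR's test. With a length and GC offset the dpi 2 change was smaller and still called, at 1.92 for C1qa, 1.96 for C1qb and 2.54 for C1qc, as were those at dpi 10 (3.15, 3.35 and 3.89) and dpi 42 (3.15, 3.04 and 3.56). OL enrichment was -3.74 to -4.05 in naive tissue, -3.93 to -4.11 at dpi 2, -4.09 to -4.10 at dpi 10 and -3.50 to -3.79 at dpi 42, with the highest adjusted p 8.9e-11 in edgeR's test.

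Within pools, the OL level of the C1q chains was 3.92% to 10.7% of the total RNA level, and that of the summed myeloid markers 5.21% to 10.1%. The myeloid markers rose beside the chains, from 19.5 to 28.0 CPM in naive OL to 78.6 to 102, 251 to 284 and 160 to 258 CPM at dpi 2, 10 and 42, and in total RNA from 233 to 278 CPM to 1395 to 1625, 3752 to 5068 and 2172 to 3230 CPM. None of the 10 was at 0 in all libraries of a group. Their part in the OL change of the C1q chains was not tested. Over the 12 OL libraries the chains correlated with each other at r = 0.987 to 0.995 and over the 12 total RNA libraries at r = 0.997 to 0.999 (log2 CPM), a description that rests mostly on the shared course over time.

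**Figure D3:**
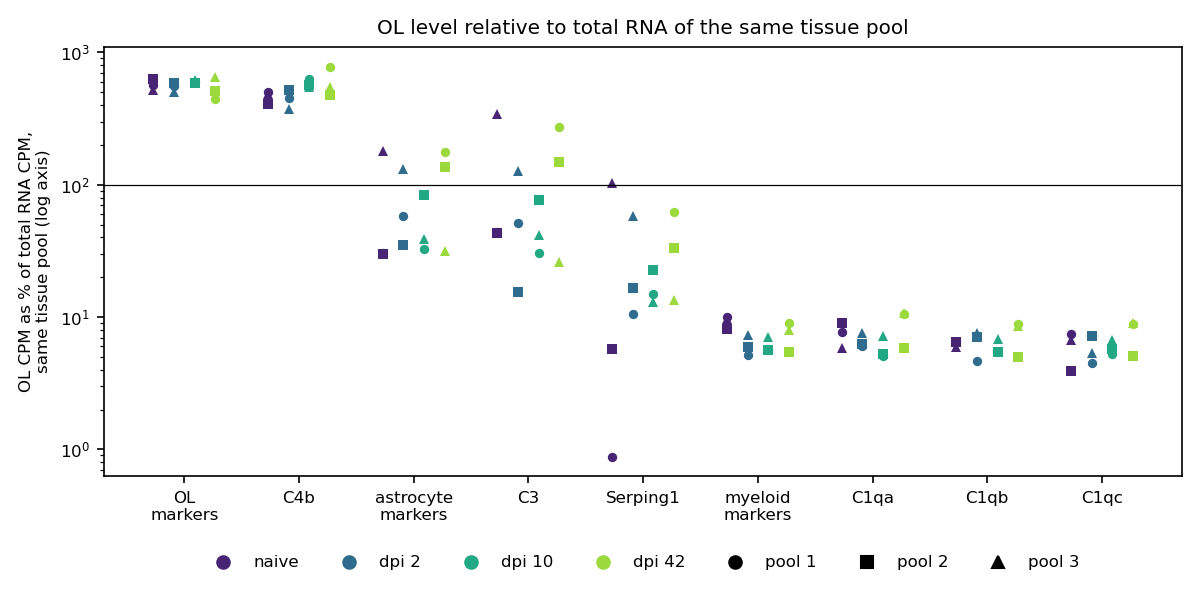
OL level as a percentage of the total RNA level of the same tissue pool (log axis) for 3 summed marker lists and 6 complement genes, by time (colours) and pool (symbols); the line marks 100%. C4b lies with the OL markers, the C1q chains with the myeloid markers, and C3 and Serping1 spread widely, as the astrocyte markers do.

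RefSeq promoters on GRCm38.p6 were at hand for 5 of the 9 genes (C1qb, C1qc, C1ra, C1s1 and C3). The 250 bases before the start are shown 5′ to 3′ for C1qb, C1s1 and C3, which stand for a gene that rose at every time, a protease gene of the same C1 complex and a gene that did not rise at dpi 2. C1qb is at chr4:136886201-136886450 (minus strand), C1s1 at chr6:124542360-124542609 (minus strand) and C3 at chr17:57228137-57228386 (minus strand). Capitals would mark matches to motifs used by cytokine-activated factors (GAS, TTCNNNGAA; ISRE, GAAA, any 2 bases, GAAA; the NF-kB consensus by name), read on both strands, and no motif match fell in these windows.
C1qb: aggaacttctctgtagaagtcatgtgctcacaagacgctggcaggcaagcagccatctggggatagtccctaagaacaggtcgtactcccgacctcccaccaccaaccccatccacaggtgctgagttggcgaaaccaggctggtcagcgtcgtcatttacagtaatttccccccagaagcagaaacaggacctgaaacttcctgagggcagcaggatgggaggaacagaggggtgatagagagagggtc
C1s1: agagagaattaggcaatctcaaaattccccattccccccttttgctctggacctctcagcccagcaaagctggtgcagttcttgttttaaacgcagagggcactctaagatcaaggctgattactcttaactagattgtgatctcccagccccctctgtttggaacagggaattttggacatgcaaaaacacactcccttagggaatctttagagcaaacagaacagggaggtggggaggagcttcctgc
C3: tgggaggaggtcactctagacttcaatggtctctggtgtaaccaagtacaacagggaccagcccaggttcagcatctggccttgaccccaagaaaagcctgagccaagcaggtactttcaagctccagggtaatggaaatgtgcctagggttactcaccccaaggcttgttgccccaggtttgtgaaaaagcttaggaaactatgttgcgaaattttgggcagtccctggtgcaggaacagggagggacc

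Among the 5 genes with a promoter entry, 1 match was found, an NF-kB consensus match GGGGCTCTCC on the plus strand of the C1qc promoter, 41 to 32 bases before the RefSeq start. Of 32851 promoter windows of this length, 7.25% held an NF-kB consensus match, 7.02% a GAS match and 2.98% an ISRE match. GAS and ISRE matches can overlap each other, and a match is only a match of letters.

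C1ra (chr6:124512405-124523443, plus strand) and C1s1 (chr6:124530345-124542359, minus strand) encode C1r and C1s, the serine proteases of the C1 complex. Both were rare transcripts that rose in total RNA. C1ra had 0, 19 and 22 counts in naive total RNA and 167 to 568 counts in total RNA after SCI, or 4.79 to 7.03 CPM at dpi 2, 13.7 to 16.8 CPM at dpi 10 and 7.70 to 13.7 CPM at dpi 42. C1s1 had 3, 8 and 18 counts in naive total RNA and reached 2.99 to 6.94, 10.6 to 11.6 and 6.53 to 13.9 CPM. No SCI library overlapped a naive one for either gene. The total changes were 3.67 ± 0.81, 5.08 ± 0.84 and 4.55 ± 0.83 for C1ra and 4.01 ± 0.80, 5.16 ± 0.83 and 4.95 ± 0.82 for C1s1 at dpi 2, 10 and 42 (log2 ± SE), with adjusted p from 5.9e-05 to 0.00102 in edgeR's quasi-likelihood test.

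In naive OL, C1ra had 8, 2 and 48 counts and C1s1 0, 0 and 16, so in both the library of pool 3 held most of the counts. C1ra rose in OL at dpi 2, from 0.34, 0.08 and 1.84 CPM to 3.06, 1.74 and 7.23 CPM, and the groups overlapped. Its OL change was 2.39 ± 0.77 there (adjusted p = 0.0173 in edgeR's test), 1.62 ± 0.76 at dpi 10 (adjusted p = 0.158) and 3.23 ± 0.78 at dpi 42 (adjusted p = 0.00301). The dpi 2 call of C1ra was lost without naive OL pool 1 (adjusted p = 0.0819), naive OL pool 2 (0.0754) or dpi 2 OL pool 3 (0.115), and when only the groups compared were fitted (0.144). Without naive OL pool 3 the OL change of C1ra was 4.16, 3.45 and 5.00 and called at dpi 2, 10 and 42 (adjusted p = 5.7e-04, 0.00631 and 1.5e-04), and without the 5 OL libraries high in astrocyte markers the dpi 10 value was 3.34 and called (0.00373). C1s1 rose in OL at dpi 2, 10 and 42, by 2.49 ± 0.83, 3.72 ± 0.83 and 5.12 ± 0.86. The adjusted p was 0.0223, 0.00327 and 1.0e-04 in edgeR's test. The groups overlapped at dpi 2, where pool 1 (0.57 CPM) lay below naive pool 3 (0.61 CPM). The naive base of C1s1 rests on the library of pool 3 alone. Without that library the naive level of C1s1 is 0 counts, and the fitted changes of 8.16, 9.45 and 10.79 (called, adjusted p at most 8.6e-05) are no bound on the fold. The dpi 2 call was lost without naive OL pool 1 (0.0918), naive OL pool 2 (0.0916) or dpi 2 OL pool 2 (0.0978), without both dpi 2 pool 2 libraries (0.0961) and, with only the groups compared, at dpi 2 (0.305) and dpi 10 (0.0911).

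OL enrichment of C1ra was 0.79 ± 0.81 in naive tissue and -0.49 ± 0.70, -2.66 ± 0.74 and -0.53 ± 0.69 at dpi 2, 10 and 42. Only the dpi 10 value was called (adjusted p = 0.00435 in edgeR's test), with OL libraries at 1.79 to 2.70 CPM and total RNA at 13.7 to 16.8 CPM. The sign was not stable in naive tissue, at -0.88 to 1.47 with 1 library left out, or at dpi 2, at 0.065 without both pool 2 libraries. C1s1 was called lower in OL at dpi 2 (-2.07 ± 0.71, adjusted p = 0.0185 in edgeR's test) and dpi 10 (-1.98 ± 0.69, adjusted p = 0.0203). At dpi 2 the C1s1 call was lost without OL pool 1 (0.0673) or total RNA pool 2 (0.0639), and at dpi 10 without OL pool 1 (0.0829) or OL pool 3 (0.0566). C1s1 gave -0.55 ± 0.89 in naive tissue and -0.37 ± 0.67 at dpi 42. With 1 library left out its naive value ran from -6.13 to 0.24, and it was called lower in 1 such fit and under 1 alternative. The low end is set against libraries at 0 counts and is no bound. Both genes have close copies, C1rb with 0 counts here and C1s2 with 51 counts in all, so sharing of reads with them remains possible.

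C3 (ENSMUSG00000024164, chr17:57203970-57228136, minus strand) is the component on which all routes of activation meet. In total RNA it rose late. Its levels were 80.4, 74.3 and 44.1 CPM in naive tissue and 57.8, 49.1 and 59.8 CPM at dpi 2, which overlap. They were 338, 335 and 308 CPM at dpi 10 and 374, 603 and 702 CPM at dpi 42, wholly above both earlier groups. From dpi 2 to 10, 19.2% of all tested genes rose without overlap in total RNA. The total change was -0.25 ± 0.65 at dpi 2 (adjusted p = 0.805 in edgeR's quasi-likelihood test), 2.30 ± 0.67 at dpi 10 (adjusted p = 0.0114) and 3.08 ± 0.69 at dpi 42 (adjusted p = 0.00264). Without the naive total RNA library of pool 3, the dpi 10 call was lost (2.08, adjusted p = 0.057).

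In OL, the levels of C3 differed widely among the pools of a group. They were 35.3, 32.2 and 151 CPM in naive pools 1, 2 and 3, then 29.7, 7.66 and 75.4 CPM at dpi 2, 102, 255 and 130 CPM at dpi 10 and 1028, 891 and 184 CPM at dpi 42. The naive and dpi 10 libraries overlapped, and only the dpi 42 libraries lay wholly above naive. The OL change was -0.95 ± 0.65 at dpi 2 (adjusted p = 0.272 in edgeR's test), 1.16 ± 0.65 at dpi 10 (adjusted p = 0.248) and 3.27 ± 0.70 at dpi 42 (adjusted p = 0.00109). Without naive OL pool 3 the dpi 10 value was 2.26 and called (adjusted p = 0.021), and without dpi 2 OL pool 3 the dpi 2 value was -2.01 and called lower (adjusted p = 0.0286). C3 was not called in OL enrichment at any time, in the fit of all libraries, with 0.14 ± 0.65 in naive tissue and -0.56 ± 0.65, -1.01 ± 0.65 and 0.32 ± 0.64 at dpi 2, 10 and 42, and adjusted p from 0.194 to 0.706 after SCI. At dpi 10 it was called lower with only the groups compared (-0.95, adjusted p = 0.0137) and with the replicate block and a length and GC offset together (-1.02, adjusted p = 0.0215).

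The order of the pools in C3 was, in each of the 4 OL groups, the order of their summed astrocyte markers. The naive OL pools had 2464, 2238 and 12281 CPM of astrocyte markers, those of dpi 2 had 4168, 2538 and 9735 CPM, those of dpi 10 had 2862, 7654 and 3311 CPM, and those of dpi 42 had 14770, 12862 and 2862 CPM. With group means removed, C3 and the summed astrocyte markers correlated at r = 0.957 over the 12 OL libraries (log2), and C3 and the summed OL markers at r = -0.908. The same figure with astrocyte markers was 0.812 for C1ra, 0.697 for C1s1 and 0.776 for Serping1, but -0.400 for C4b and -0.576, -0.266 and -0.227 for C1qa, C1qb and C1qc. OPC markers gave 0.938 for C3, and Schwann cell markers 0.891 for Serping1 and 0.883 for C1s1. These are descriptions over libraries that share groups and scaling.

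**Figure D4:**
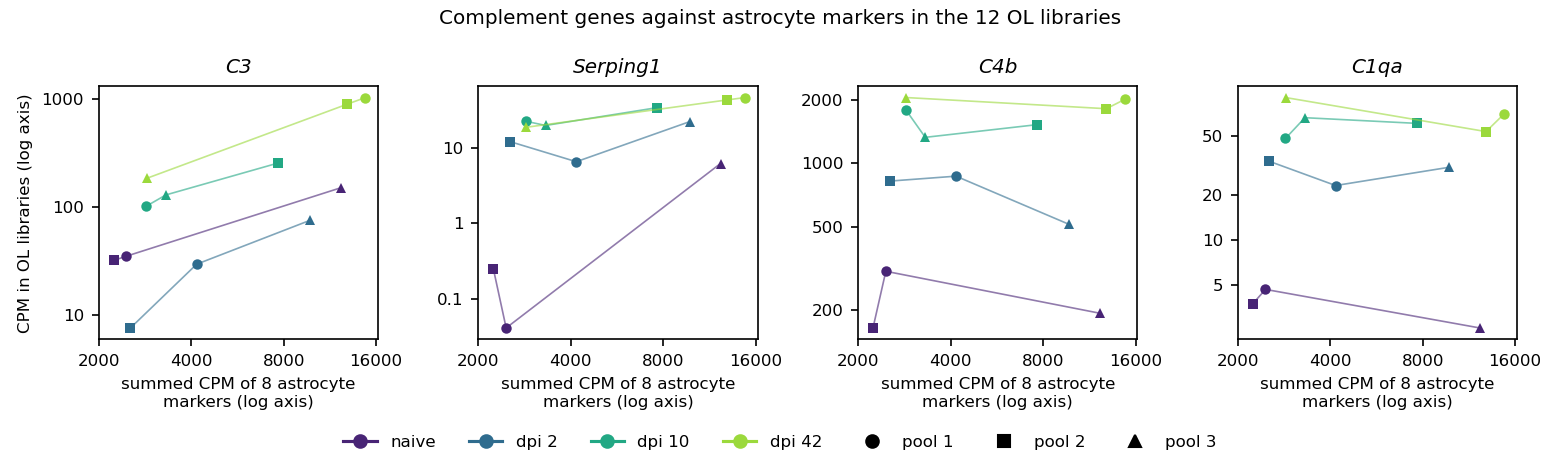
CPM of C3, Serping1, C4b and C1qa (log axes) against the summed CPM of 8 astrocyte markers (log axis) in the 12 OL libraries; colours, times; symbols, pools; lines join the libraries of a group. C3 climbs with the astrocyte markers in each group, from 7.66 to 75.4 CPM at dpi 2 and from 184 to 1028 CPM at dpi 42, and C4b and C1qa do not.

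Without the 5 OL libraries high in astrocyte markers, a choice made after the values were seen, 2 OL libraries remain in naive tissue, at dpi 2 and at dpi 10, and 1 at dpi 42, whose spread is assumed to be that of the others. The libraries left out include the highest in C3 of each OL group, so a lower OL level of C3 was fixed by the choice, and no test of C3 is drawn from this fit. Its OL enrichment there was -0.81, -1.61, -1.45 and -1.56, as a description. For C4b the OL enrichment in the same fit was 2.34 to 2.65 and its OL change 1.78, 2.72 and 3.11. For C1qa the OL change was 2.68, 3.75 and 4.39. The part of the astrocyte markers in the OL levels of C3 was not tested. Without the dpi 42 libraries whose labels disagree, C3 gave an OL enrichment of -0.28 at that time.

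Serping1 (ENSMUSG00000023224, chr2:84765387-84775444, minus strand), the inhibitor of C1r and C1s, rose in total RNA from 4.75, 4.42 and 6.02 CPM in naive tissue to 61.6, 72.6 and 37.7 CPM at dpi 2 and 149, 148 and 151 CPM at dpi 10. At dpi 42 it measured 73.2, 127 and 138 CPM. Each SCI group lay wholly above naive, and dpi 10 wholly above dpi 2 and 42. From dpi 2 to 10, 19.2% of all tested genes rose without overlap, and from dpi 10 to 42, 12.8% fell without overlap. The total change was 3.50 ± 0.70, 4.88 ± 0.74 and 4.48 ± 0.73 (log2 ± SE), with adjusted p of 4.3e-04, 3.3e-05 and 1.4e-04 in edgeR's quasi-likelihood test. The 8 fibroblast and mural markers moved beside it in total RNA, summing to 133 to 159 CPM in naive tissue and 575 to 1014, 2243 to 2507 and 594 to 895 CPM at dpi 2, 10 and 42, with 7, 7 and 6 called higher (10%, 9.2% and 6.66% of all tested genes). None of the 8 was at 0 in all libraries of a group, and their part in the total RNA change of Serping1 was not tested.

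In naive OL, Serping1 had 1, 6 and 161 counts in pools 1, 2 and 3, or 0.042, 0.25 and 6.16 CPM. It measured 6.50, 11.9 and 21.9 CPM at dpi 2, 22.1, 33.6 and 19.5 CPM at dpi 10 and 45.5, 42.3 and 18.5 CPM at dpi 42. Naive OL pool 3 lay just below the lowest library at dpi 2, and the other naive libraries far below. The OL change was 2.61 ± 0.72, 3.51 ± 0.74 and 4.01 ± 0.75 with adjusted p of 0.00671, 0.00192 and 2.9e-04 in edgeR's test. Without naive OL pool 3 the OL change of Serping1 was 6.40, 7.37 and 7.80 at dpi 2, 10 and 42, against a base of 1 and 6 counts. With only the groups compared in the fit, none of the 3 calls held (adjusted p = 0.2, 0.0999 and 0.065). The 8 fibroblast and mural markers summed to 51.4 to 95.6 CPM in naive OL. They reached 215 to 288, 542 to 616 and 226 to 285 CPM in OL at dpi 2, 10 and 42. Of them 7, 6 and 7 were called higher in OL (10.2%, 6.82% and 8.54% of all tested genes). The 6 Schwann cell markers summed to 7.69, 9.52 and 708 CPM in naive OL pools 1, 2 and 3. After SCI they reached 236 to 719, 888 to 1561 and 1276 to 1462 CPM in OL. With group means removed, Serping1 correlated in OL at r = 0.891 with Schwann cell, 0.776 with astrocyte and 0.56 with fibroblast and mural markers. The part of these lists in the OL change of Serping1 was not tested.

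OL enrichment of Serping1 was -1.20 ± 0.72 in naive tissue (adjusted p = 0.169 in edgeR's test) and was called lower after SCI, at -2.09 ± 0.66, -2.58 ± 0.66 and -1.67 ± 0.64 for dpi 2, 10 and 42 with adjusted p of 0.0105, 0.00237 and 0.0324. Without naive OL pool 3 the naive value was -4.90 (adjusted p = 1.6e-05). The dpi 42 call was lost without OL pool 2 (0.0521), OL pool 3 (0.107), total RNA pool 1 (0.0734) or total RNA pool 3 (0.0889), and under the DESeq2 Wald test (0.0782). The dpi 2 call was lost without both libraries of dpi 2 pool 2 (0.0807).

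Cfb (ENSMUSG00000090231, chr17:34856374-34862518, minus strand), the factor B gene of the alternative route, was close to undetected, with 108 counts in all 24 libraries. Total RNA at dpi 10 held 14, 31 and 29 of them, or 0.42, 0.89 and 0.83 CPM. OL libraries held 0 counts except for 4 in dpi 10 pool 3, and 0 counts allow a level of up to 3 counts, or 0.105 to 0.127 CPM in OL. The dpi 10 total RNA libraries lay above all naive ones (0, 0 and 3 counts), as did 24.5% of all tested genes. No comparison of Cfb was called in the fit of all libraries, its smallest adjusted p against naive being 0.159 in edgeR's quasi-likelihood test, and no fold change is given for it. With only the groups compared it was called higher in total RNA at dpi 10.

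Whether OLs responded differently from the whole tissue was asked with the differential OL enrichment, the OL change minus the total change. None of the 9 genes was called in either direction at dpi 2, 10 or 42 in edgeR's quasi-likelihood test, where 3.35%, 1.48% and 1.56% of all tested genes were called higher and 2.92%, 1.43% and 1.42% lower. At an unadjusted p under 0.05 there were 0, 1 and 0 genes, and the DESeq2 Wald test called 0, 1 and 0. The 1 gene is C1ra at dpi 10, at -3.46 ± 1.09 (adjusted p = 0.056 in edgeR's test). It was called lower under TMM scaling to a total RNA library (-3.68, adjusted p = 0.0385), under DESeq2 (-3.50, adjusted p = 0.0097) and without naive OL pool 1 or 2, dpi 2 OL pool 2 or 3, or dpi 42 OL pool 3, while without naive OL pool 3 it was -1.74. At dpi 42, 0 to 2 of the 9 genes were called higher with 1 library left out. For the C1q chains the differences were -0.37 to 0.30 over the 3 times.

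The study's filtration for transcripts attributable to OLs keeps a gene that changed in OL if its differential OL enrichment was called in the same direction, or if its OL enrichment passed 1 both in naive tissue and at that time. C4b passed at dpi 2, 10 and 42, by the latter route, where 2.11%, 0.693% and 1.16% of all tested genes passed as rising. None of the other 8 genes passed at any time. Without naive OL pool 3, C1s1 and Serping1 passed beside C4b at dpi 42 (3 genes). The naive OL base was then 0 and 0 counts for C1s1 and 1 and 6 counts for Serping1. In the fit of all libraries Serping1 was called lower in OL than in total RNA at dpi 42 (-1.67).

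Between dpi 2 and 10, total RNA of C1qa, C1qb, C1qc and C3 rose, 4 of 9 genes against 1.07% of all tested genes (0.967% were lower), by 1.17, 1.06, 1.14 and 2.56 with adjusted p of 0.00123, 0.00185, 0.00284 and 0.0215 in edgeR's test. The C3 call was lost when any of 5 libraries was left out (dpi 2 pools 1, 2 and 3, dpi 10 pools 1 and 2; adjusted p = 0.0529 to 0.101), and C1qb fell under the threshold at 0.973 without dpi 2 pool 1 and 0.975 without dpi 10 pool 2. The C1qc call was lost with the replicate block and a length and GC offset together (adjusted p = 0.059). In OL, C1qc, C3 and C4b rose, 3 of 9 against 4.35% of all (3% were lower), by 1.16, 2.11 and 1.08. C1qa (0.99) and C1qb (0.91) had adjusted p of 0.00188 and 0.00286 in edgeR's test and fell just short of the fold threshold, which they passed in 10 and 3 of the fits with 1 library left out and in 5 and 4 of the alternatives. C3 there lost its call without dpi 2 OL pool 1 (adjusted p = 0.0723), dpi 2 OL pool 2 (0.0786) or dpi 10 OL pool 2 (0.1), without both libraries of dpi 2 pool 2 (0.106), and with only the groups compared (0.0607). From dpi 10 to 42 none of the 9 was called, in OL (0.483% of all genes higher, 1.22% lower) or total RNA (0% higher, 0.0757% lower). At an unadjusted p under 0.05 there were 2 genes in OL and 0 in total RNA, and DESeq2 called 1 and 0. The 1 was C3 in OL, at 2.11 ± 0.67 with adjusted p = 0.0588 in edgeR's test, called without naive OL pool 3, dpi 2 OL pool 2 or 3, or dpi 42 OL pool 3.

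The wider complement system was followed in 50 further genes listed by role, of which 49 were in the table and 41 were tested. In total RNA 14 were called higher at dpi 2, 15 at dpi 10 and 14 at dpi 42, where 10%, 9.2% and 6.66% of all tested genes were, and 4, 2 and 2 lower, where 6.33%, 3.07% and 0.798% were. In OL 12, 11 and 8 were called higher (10.2%, 6.82% and 8.54% of all) and 3, 1 and 1 lower (6.85%, 1.26% and 4.08%). In OL enrichment 16, 24, 19 and 22 were called lower in naive tissue and at dpi 2, 10 and 42 (28.6%, 27.2%, 27.3% and 27% of all), and 3, 4, 2 and 2 higher (21.7%, 20.5%, 21.2% and 21.1%). Genes are named with values where a group mean reached 10 CPM.

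Complement receptors, carried largely by phagocytes, were mostly higher after SCI and scarce in OL. Of 9 tested, 8, 8 and 6 were called higher in total RNA at dpi 2, 10 and 42 (10%, 9.2% and 6.66% of all tested genes) and 5, 7 and 5 in OL (10.2%, 6.82% and 8.54%). In naive tissue and after SCI 8, 9, 9 and 9 were called lower in OL than in total RNA, where 28.6%, 27.2%, 27.3% and 27% of all were. The median total change was 3.22, 4.46 and 3.86, against -0.10, -0.10 and -0.08 over all tested genes. C3ar1, the receptor for the C3a fragment, stood at 2.11 ± 0.17 CPM (SD, n = 3) in naive total RNA and 90.2 ± 2.1, 104 ± 24.2 and 58.3 ± 10.6 CPM after SCI. C5ar1, the C5a receptor, peaked at 45.8 ± 2.65 CPM at dpi 2. Itgax, a chain of complement receptor CR4, climbed from 0.592 ± 0.131 to 3.8 ± 1.37, 27.6 ± 6.76 and 70.6 ± 14.5 CPM. Itgb2, the integrin chain it pairs with, went from 6.19 ± 1.02 to 136 ± 26.7 CPM at dpi 10.

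Among initiators and proteases, 4 of 12 tested were called higher in total RNA at each time after SCI (10%, 9.2% and 6.66% of all tested genes), and 3, 2 and 0 in OL (10.2%, 6.82% and 8.54%). Cfp, which encodes properdin, the stabiliser of the alternative convertase, rose in total RNA by 4.48, 4.69 and 2.76 (log2), and Colec12, a collectin, by 1.37, 3.00 and 2.68. Masp1, a protease of the lectin route, was not called changed in either kind of RNA and was OL enriched throughout, at 1.28, 1.22, 1.69 and 1.20, with 50.1 ± 15.9 CPM in naive OL and 20.6 ± 5.46 CPM in naive total RNA. Of the 5 terminal components tested, 1 was called higher in total RNA at each time after SCI (10%, 9.2% and 6.66% of all tested genes). In OL none was called higher against naive, 1 was called lower at dpi 2 (6.85% of all), 2 were called higher between dpi 2 and 10 (4.35% of all), and none reached 10 CPM.

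Of 15 other regulators tested, 1, 2 and 3 were called higher in total RNA (10%, 9.2% and 6.66% of all tested genes) and 4, 2 and 2 lower (6.33%, 3.07% and 0.798%). Vtn (vitronectin) rose in total RNA at dpi 10 and 42, by 2.6 and 2.78, and in OL at all 3 times, by 1.25, 3.55 and 4.07. Its OL level started low, at 1.42 ± 0.89 CPM in naive tissue, and reached 3.44, 16.8 and 24.2 CPM at dpi 2, 10 and 42. The mean level of Vtn in total RNA was higher at each time, at 29.1, 53.7, 176 and 200 CPM. Cd59a, which blocks the membrane attack complex, was OL enriched at 0.85, 1.73, 1.59 and 1.47 and rose in OL at dpi 2, from 48.6 ± 9.79 to 124 ± 24.3 CPM (1.35, adjusted p = 3.9e-06 in edgeR's quasi-likelihood test). Its total change there was 0.47. Cr1l, the rodent Crry regulator, was OL enriched in naive tissue (1.17) and not at dpi 2 (0.055), with a differential OL enrichment of -1.12 (adjusted p = 6.7e-04 in edgeR's test). Csmd3 and Susd4, regulators expressed in neural cells, fell at dpi 2 in total RNA by 1.82 and 1.44 and in OL by 2.20 and 1.21. The 8 neuron markers summed to 9906 to 10610 CPM in naive total RNA and 3955 to 5285 CPM at dpi 2, with 7 called lower (6.33% of all tested genes), and to 466 to 612 and 320 to 559 CPM in OL, with 1 called lower (6.85% of all). Their part was not tested. Clu (clusterin) was not called at any time, with naive OL libraries at 413 ± 428 CPM.

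**Figure D5:**
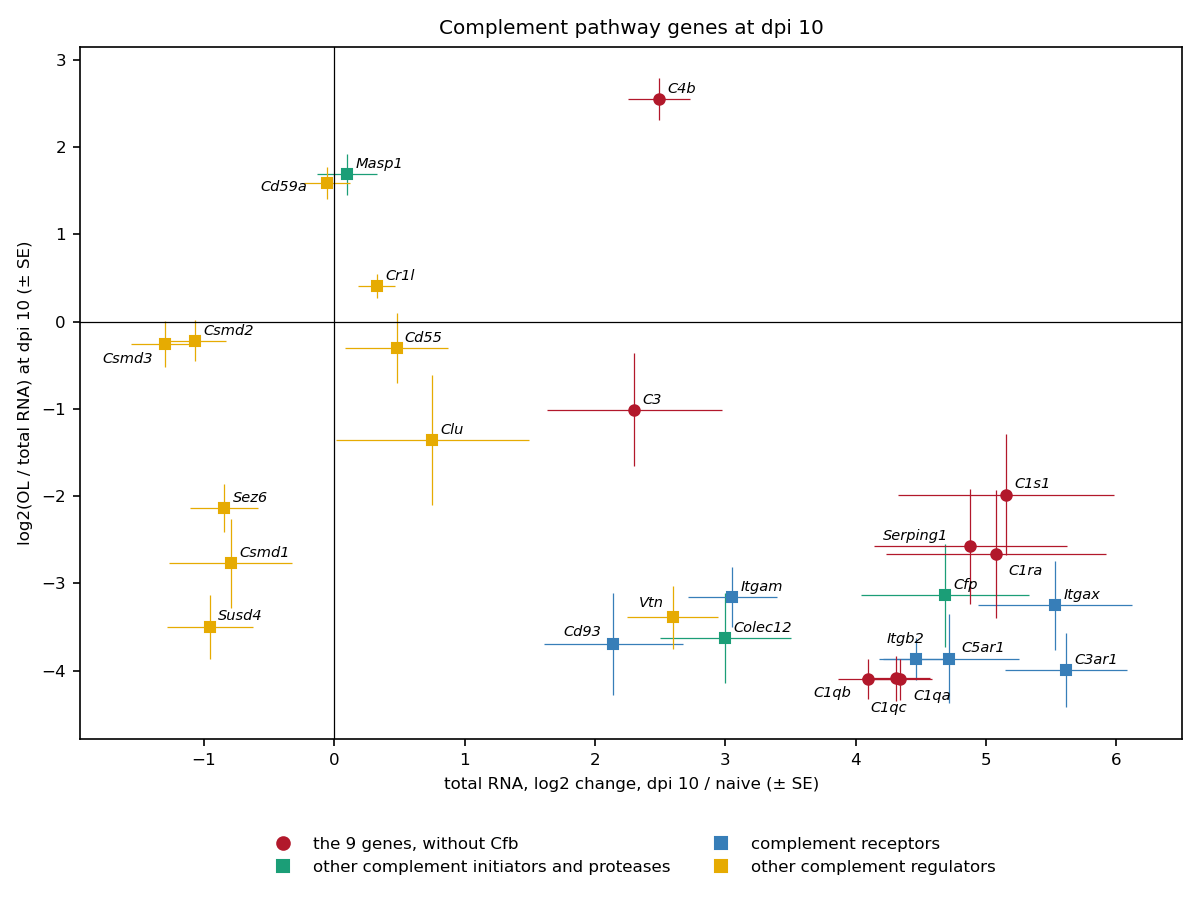
OL enrichment at dpi 10 (y axis, log2 ± SE) against the total RNA change from naive to dpi 10 (x axis, log2 ± SE) for 8 of the 9 complement genes (red circles) and further complement genes with a group mean of at least 10 CPM (squares, by role). C4b sits alone at high change and high enrichment, at 2.49 and 2.55, while the receptors and C1q chains share the lower right and Masp1 and Cd59a the top centre.

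By Pearson correlation of log2 CPM over the 12 OL libraries, the genes most like C4b among 12608 compared were Ctss (r = 0.969), Ly6e (0.964) and Col13a1 (0.964). The gene nearest to C1qb outside the chains was Fcgr1 (0.995), an Fc receptor of phagocytes, and Lyz2 was also near C1qc (0.988). For C3 they were St8sia2 (0.982), Sirpa (0.981) and Susd2 (0.980). For Serping1 they were Afap1l2 (0.986), Rcn3 (0.977) and Rflna (0.976). Over the 12 total RNA libraries, Tyrobp stood next to C1qa (0.997) and Ctsd next to C1qc (0.997), Plau, Rgs1 and Ccn5 were nearest to C4b (0.985, 0.984 and 0.984), and Epsti1, Pcolce and Col6a2 nearest to Serping1 (0.994, 0.993 and 0.993). All libraries share the same course over time, so high values are common among genes that changed.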

How the data were processed

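RNA sequencing of 24 libraries (12 OL, 12 total RNA, 8 groups of 3 tissue pools) was analysed. The authors checked reads with FastQC 0.10.1, aligned them to mm10 (GRCm38.p6) with STAR and counted them per gene with HTSeq 0.10.0, and deposited raw counts; strand setting and annotation release are not given in the sources used here. Their own tests used DESeq2. Here the deposited counts of 21965 genes were filtered at a sum of at least 10 (17167 genes), scaled by TMM and fitted with 8 group means in edgeR 4.0.16 (R 4.3.3, limma 3.58.1), quasi-likelihood test, Benjamini-Hochberg adjustment over all tested genes. Calls needed an adjusted p under 0.05 and a log2 fold change past 1 (0.5 for OL enrichment). DESeq2 1.42.0 was an alternative. Scripts were tested on simulated data. Depth was 25840127 to 32987841 counts, at which 3 counts are 0.084 to 0.127 CPM; such floors cover counting error only.

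The 9 genes and all lists were chosen with earlier results of these data known. Genes of the wider system were named where a group mean reached 10 CPM, and the 3 genes nearest in correlation were taken. Gene positions and lengths are from GENCODE M21 and promoters from RefSeq (GRCm38.p6); C1qa, C4b, Cfb and Serping1 are without promoter sequence here. Tissue pools pair OL with total RNA because both libraries came from the same mice, but at dpi 42 conflicting labels leave the pairing unclear. Deviations of same-pool libraries correlated at 0.0245 to 0.137 before dpi 42 and -0.0109 to 0.02 at dpi 42. Those of unlike pools reached 0.0502 before dpi 42 and ran from -0.028 to 0.0253 at dpi 42. Pools, each of 2 mice, were the replicates. Counts of all replicate pairs differed beyond sampling noise. Some items are not reported here.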

Additional observations from a re-analysis of the deposited data

How the results depend on the processing

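The 13 alternatives and 24 fits with 1 library left out changed the following counts of complement genes by more than 1.5 times. For differential OL enrichment at dpi 10, 1 gene was called lower with TMM scaled to a total RNA library and with DESeq2. For OL between dpi 10 and 42, 1 was called higher with DESeq2 and without both dpi 2 pool 2 libraries. With only the groups compared in the fit, 4 were called higher in OL at dpi 2 and 7 in total RNA between dpi 2 and 10. The same setting gave smaller shifts, to 4 of the main 6 in OL at dpi 10 and 7 of 8 at dpi 42, 9 in place of 8 in total RNA at dpi 10, and 7 in place of 6 lower in OL enrichment at dpi 10. DESeq2 called 3 in place of 4 lower in OL enrichment at dpi 42, and without the 5 libraries below 8 in place of 6 were higher in OL at dpi 10 and 6 in place of 4 in total RNA between dpi 2 and 10. Every other shift was of 1 gene, except as given next. Without the 5 OL libraries high in astrocyte markers, chosen after seeing the data, 6 were called lower in naive OL enrichment and 5 higher in OL between dpi 2 and 10, counts that include C3, whose highest OL libraries are among those left out. The cause was not tested. With the tissue pool as a replicate block no count of called genes moved, and C4b enrichment was 2.21, 2.16, 2.54 and 2.56.

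Leaving out 1 library gave ranges of 0 to 1 genes lower in OL at dpi 2, 3 to 5 lower in naive OL enrichment, 0 to 1 lower in differential OL enrichment at dpi 10, 0 to 2 higher in it at dpi 42, 2 to 5 higher in OL and in total RNA between dpi 2 and 10, 0 to 1 higher in OL between dpi 10 and 42, and 1 to 3 past the filtration at dpi 42. The ranges were 5 to 7 higher in OL at dpi 2, 6 to 8 at dpi 10, 7 to 8 in total RNA at dpi 10, and 4 to 5, 5 to 6 and 3 to 4 lower in OL enrichment at dpi 2, 10 and 42.

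C3 enrichment changed sign in naive tissue with library sizes alone (-0.33), the replicate block (-0.27), a length and GC offset (-0.034), both together (-0.304) and without the 5 libraries (-0.81), and at dpi 42 with library sizes alone (-0.17), without the libraries whose labels conflict (-0.28) and without the 5 (-1.56). C1ra enrichment changed sign at dpi 2 without both pool 2 libraries (0.065) and in naive tissue without the 5 (-0.88). Leaving out the 2 libraries with conflicting labels ended no call of the 9 genes. Library sizes alone moved the median of all genes by -0.50 to -0.58 in OL enrichment. With 1 library left out, values that changed sign ranged for C3 from -2.01 to 0.093 (OL change, dpi 2), -0.81 to 0.65 (enrichment, naive) and -0.062 to 0.76 (enrichment, dpi 42), for C1ra from -0.88 to 1.47 (enrichment, naive), -2.22 to 0.34 and -2.003 to 0.35 (differential, dpi 2 and 42) and -1.07 to 0.021 (OL, dpi 10 against 2), for C4b from -0.44 to 0.084 and -0.025 to 0.46 (differential, dpi 2 and 42) and for C1s1 from -6.13 to 0.24 (enrichment, naive, against libraries at 0 counts and so no bound). Depth limits Cfb and, in naive tissue, C1ra, C1s1 and Serping1.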
